A study of Mus musculus with 2 samples.

Results

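The 5′-shortened transcript models of the mouse adrenal gland are the models whose chain of introns repeats only the 3′ part of the intron chain of a longer transcript. The transcript caller places them in the class incomplete splice match (ISM) with the subtype suffix. The 746 models described here were chosen by that class, by an identical chromosome, strand and intron chain in both libraries, and by at least 5 reads in each library. They are 746 of the 6576 suffix chains found in both libraries, and 746 of the 10395 matched models of any class with at least 5 reads in each library. Read counts were thus selected on, and levels and shares are given as a description.

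RNA of adrenal glands was read by long-read RNA sequencing. The glands came from male mice of the strain B6CASTF1/J aged 2 months, an F1 hybrid between a B6 and a CAST parent. The 2 libraries, replicate 2 and replicate 1, form 1 untreated group, so the data hold no contrast between conditions. The labels number the animals 4 and 3 for the biosamples but give the same donor and the same library description, so separate animals are not shown and the spread may be technical. Reads on annotated or new genes numbered 656786 in replicate 2 and 824186 in replicate 1, without spike-ins.

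A messenger RNA begins at a capped 5′ end that is set by the promoter used, and many genes have more than one promoter. A cDNA made from the 3′ end can also stop before it reaches the cap, and a partly degraded RNA has lost its cap. In a long-read library these all give a model that lacks upstream exons. The adrenal cortex makes steroids from cholesterol, and the chromaffin cells of the medulla make catecholamines, and genes of these pathways are strongly expressed there.

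Stretches of the first coding exon kept by suffix models of adrenal genes are shown first, because the place of the start relative to the reading frame is what tells these models apart. Each stretch starts at the 5′ edge of the first exon kept by the model in the annotated transcript named below, and the capitals mark the first ATG that lies in the frame of the full-length protein. Sequences are those of GENCODE M21 transcripts (build mm10), and positions are on the strand of the gene.
Hao2 exon 5 (chr3:98881930-98882087, minus strand): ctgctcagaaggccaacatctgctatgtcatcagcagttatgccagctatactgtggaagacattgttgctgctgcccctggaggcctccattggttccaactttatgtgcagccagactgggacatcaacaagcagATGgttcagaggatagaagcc
Nr5a1 exon 4 (chr2:38708502-38708539, minus strand): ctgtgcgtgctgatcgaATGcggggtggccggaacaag
Star exon 4 (chr8:25810945-25810992, plus strand): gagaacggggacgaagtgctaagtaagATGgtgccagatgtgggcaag
Cyp11a1 exon 4 (chr9:58019293-58019342, plus strand): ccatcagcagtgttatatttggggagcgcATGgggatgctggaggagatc
Cyp11a1 exon 6 (chr9:58025078-58025104, plus strand): acctccATGaccctgcagtggaacctt
Cyp21a1 exon 3 (chr17:34803666-34803691, minus strand): gaaagATGgacttggacctgtccctg

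In Hao2, which codes for a hydroxyacid oxidase, the in-frame ATG begins at base 138 of the exon, and in Nr5a1 it begins at base 18. In Star, Cyp11a1 exon 4, Cyp11a1 exon 6 and Cyp21a1 it begins at bases 28, 30, 7 and 6. An ATG at these places is a property of the letters and says nothing about its use. The deposited start lay on the edge shown in both libraries for Hao2, Nr5a1, Cyp11a1 exon 6 and Cyp21a1, and within 3 nt of it for Star, but for Cyp11a1 exon 4 it did so in replicate 1 only.

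A second set shows starts that fell on no annotated boundary and yet were the same in both libraries. Here the stretch also begins at the exon edge, and the capitals run from the deposited start of the model.
Pcx exon 17 (chr19:4619780-4619827, plus strand): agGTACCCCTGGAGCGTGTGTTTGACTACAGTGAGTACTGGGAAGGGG
Lonp1 exon 6 (chr17:56620305-56620352, minus strand): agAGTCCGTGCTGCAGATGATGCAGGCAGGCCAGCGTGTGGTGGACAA
Atp5b exon 2 (chr10:128083892-128083939, plus strand): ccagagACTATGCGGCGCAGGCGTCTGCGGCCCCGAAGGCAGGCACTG

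Pcx (pyruvate carboxylase) had 12 reads in replicate 2 and 21 in replicate 1 at this start. Lonp1, a protease of the mitochondrial matrix, had 5 and 10, and Atp5b, the beta subunit of the mitochondrial ATP synthase, had 12 and 13. Each of these starts lies 2 to 6 bases inside a coding exon.

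Suffix models of any depth took 5.55% of the reads in replicate 2, as 15754 models, and 5.52% in replicate 1, as 16651 models. Most were thinly read, since 70.1% of these models in replicate 2 and 68.0% in replicate 1 rested on a single read. The 746 recurrent models held 14161 reads (38.9% of suffix reads) in replicate 2 and 19696 reads (43.3%) in replicate 1. The median model had 9 reads in replicate 2 and 12 in replicate 1. At the edge of the threshold, 178 models had exactly 5 reads in their lower library, with a median share of 3.28% of their gene, and 260 suffix chains just outside had 4 reads and a median share of 3.64%.

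The gland was represented by both of its parts, as the 5 cortex markers summed to 39842 reads in replicate 2 and 47301 in replicate 1, and the 5 chromaffin markers to 8150 and 9273. The 4 fat markers summed to 2573 reads in replicate 2 and 6367 in replicate 1, the 2 erythroid markers to 442 and 1296, and the 4 kidney markers, of which 1 was detected, to 6 in each library. The median model length over reads was 2221 nt in replicate 2 and 1952 nt in replicate 1.

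The class name was checked against GENCODE M21, and 727 of the 746 models were the 3′ part of at least 1 annotated transcript. The most read such transcript is called the parent below. The other 19 models repeated the end of no annotated chain, and 2 of them lay on new loci outside the annotation. The models fell into 511 genes, and 740 of the models belonged to protein-coding genes. The caller gave 7 models, the 2 on new loci among them, to different gene identifiers in the libraries, and these enter no summary of shares. Of the remaining genes, 396 had 1 suffix model, 70 had 2, and 40 had 3 or more. Those 40 genes held 203 of the models.

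Starts, in the deposited coordinates, were seldom free. In replicate 2, 270 models (36.2%) started on the start of an annotated transcript of the gene, 369 (49.5%) on the 5′ edge of an annotated exon, 47 (6.30%) on a 3′ edge and 60 (8.04%) elsewhere. In replicate 1 these counts were 263 (35.3%), 361 (48.4%), 56 (7.51%) and 66 (8.85%). In 648 models (86.9%) the start lay on an annotated boundary in both libraries. The sources used here do not state how the start of a model was set from its reads. Each model carries 1 start per library, so the spread of read ends behind it cannot be seen.

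The starts of the libraries were identical in 549 models (73.6%) and lay within 50 nt of each other in 607 (81.4%). Of the 549 identical starts, 537 lay on an annotated boundary in both libraries. Identity of starts therefore cannot be told apart from a shared annotated boundary for nearly all of these models. Among matched models of other classes, starts lay within 50 nt in 97.5% of 79 ISM prefix models, 93.3% of 625 NIC models (new combinations of known splice sites) and 93.2% of 221 NNC models (with a new splice site). Identical starts were less common among NIC models (69.1%) than among suffix models (73.6%). The suffix class was the one with the lowest share within 50 nt of these 4. It also had the fewest starts on annotated transcript starts, at 36.2% in replicate 2 against 96.2%, 97.9% and 87.8% in these other classes. The class is defined by the loss of the 5′ part of an intron chain, so this second order follows partly from the definition. In 62 suffix models the starts lay over 500 nt apart, and the largest distance was 4157 nt, in Rpn2.

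**Figure D1:**
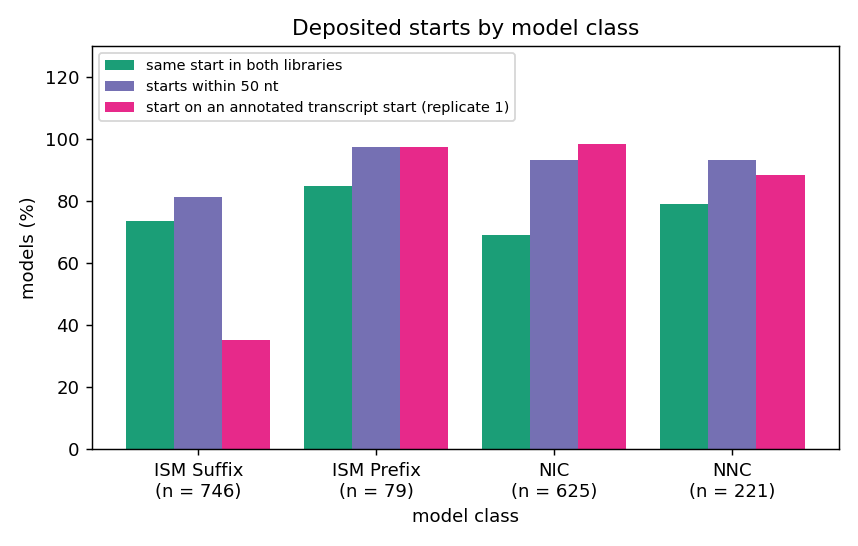
Percent of matched models of 4 classes whose deposited start was the same in both libraries, lay within 50 nt, or fell on an annotated transcript start in replicate 1; n is the number of models with at least 5 reads in each library. Suffix models reach 81.4% within 50 nt and 35.3% on annotated transcript starts, the lowest bars of the 4 classes for these measures, while for identical starts NIC models are lowest at 69.1%.

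Where both libraries started off every annotated boundary of the gene, agreement was rarer. Of 28 such models, 12 had starts within 50 nt and 8 had the same base, with a median distance of 122 nt and a largest one of 1596 nt. Of those 8, 2 lay on an exon edge of another gene, which leaves 6 models with a common start on no annotated edge. These 6 were chosen after their values were seen. They are the Pcx, Lonp1 and Atp5b models shown above, a Cyp11a1 model, an Nr4a1 model and 1 model on a new locus. The Cyp11a1 model had 43 reads in replicate 2 and 50 in replicate 1, kept exon 2 onward, and began at chr9:58016140-58016140, 134 nt upstream of that exon in intron 1. Nr4a1, an immediate early transcription factor, had 10 and 19 reads on a model that began at position 101260655 of chromosome 15, 6191 nt from the RefSeq start of the gene. The new locus began at position 148511894 of chromosome 5 and had 13 and 28 reads.

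Relative to the parent, the start lay in the first kept exon for 519 models (71.4%) in replicate 2 and 529 (72.8%) in replicate 1. It lay in the preceding intron for 95 (13.1%) and 96 (13.2%). For the rest, 113 models (15.5%) in replicate 2 and 102 (14%) in replicate 1, the deposited first exon ran over the whole preceding intron and began at or upstream of the end of a dropped exon. Such a model lacks the upstream splice but keeps the sequence of the preceding intron. The first exon ran over this intron in both libraries for 82 models (11.3%). Of these, 72 began on an annotated transcript start in both, and 54 lacked only the first intron of the parent. In 19 of the 82 the start was that of the parent itself, so the name 5′-shortened does not describe these 19. Any others of the 54 began inside exon 1 of the parent or upstream of it. Those that began inside it lack only a part of exon 1, and those upstream are not shortened either. A model that starts inside a later dropped exon, such as the Ccdc114 model below, does lack the exons before its start.

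Eif4g2, a translation factor, was 1 example with 99 reads in replicate 2 and 82 in replicate 1, or 22.0% and 18.9% of the gene. Its first exon began on the start of its parent Eif4g2-206, 194 nt before exon 2. Hnrnpf, an RNA-binding protein, had 71 and 70 reads, or 30.9% and 28.9%, and S100a13 had 25 of 26 reads and 68 of 73. For these 3 genes, which were picked for their reads after the values were seen, 0 to 2 reads per library were given to the spliced parent. The median share was 6.98% over the 82 models, and 4.75% over the 594 models whose start lay in the first kept exon or the preceding intron in both libraries.

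A nearby annotated start was common. In 252 models (33.8%) the start of both libraries lay within 100 nt of an annotated transcript start of the gene. RefSeq, which lists fewer starts, had an entry for the genes of 556 models, and 63 models started within 100 nt of one in both libraries. Promoters of RefSeq (GRCm38.p6) are shown for 2 genes in which the suffix start lay close to such a start, from 120 bases before to 30 after it. Capitals mark the motifs CCAAT and GGGCGG on either strand.
Dhcr7 promoter (chr7:143830094-143830243, plus strand): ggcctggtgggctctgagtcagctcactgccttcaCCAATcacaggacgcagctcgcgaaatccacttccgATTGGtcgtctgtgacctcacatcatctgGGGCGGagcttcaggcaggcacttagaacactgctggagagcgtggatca
Maged2 promoter (chrX:150812950-150813099, minus strand): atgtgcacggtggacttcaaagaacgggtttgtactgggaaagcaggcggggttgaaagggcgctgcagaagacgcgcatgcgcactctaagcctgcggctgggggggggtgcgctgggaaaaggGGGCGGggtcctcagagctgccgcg

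The suffix model of Dhcr7 began 20 nt downstream of the RefSeq start, and that of Maged2 began 21 nt downstream. Of the 33 RefSeq promoters that lay within 50 nt of a suffix start common to both libraries, 10 (30.3%) held CCAAT, 20 (60.6%) held GGGCGG and 3 (9.09%) held TATAAA in this window of 150 bases, on either strand. Over all 32851 RefSeq promoters, expressed in the gland or not, these shares were 24.0%, 29.1% and 7.16%. The motifs searched do not overlap in the sequences shown. Both promoters shown hold GGGCGG, so they do not stand for the 33. The Ak1 promoter, not shown, had the suffix start on the RefSeq start itself and held none of these motifs.

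Loss of exons was mostly short. Of the 727 models with a parent, 283 (38.9%) dropped 1 exon, 106 dropped 2, and 88 dropped 10 or more. The largest number was 42, in a Col4a2 model that kept the last 6 exons of a collagen IV transcript and had 7 reads in each library. The dropped exons made up a median of 20.0% of the length of the parent (quartiles 8.95% and 36.9%), or 445 nt. Parents were of a common size, with a median length of 2613 nt and 10 exons, where the 8560 annotated models with at least 5 reads in each library had medians of 2452 nt and 8 exons. The parent itself had no read in either library for 45 models, and 120 models were more read than their parent in both libraries.

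The place of the annotated start codon divided the models. For 548 models (75.4%) the start codon of the parent lay in a dropped exon. The deposited start lay past the codon in both libraries for 502 of these, so they lack the annotated start codon of the parent. Coding parts of other annotated transcripts were not searched. In 28 the deposited start lay before the codon in both libraries, and their first exon runs upstream over the codon. For 141 (19.4%) the codon lay in the first kept exon, and 117 of these began upstream of it in both libraries. For 29 (3.99%) it lay in a later exon, with the whole coding part downstream of the start. The median share of the gene was 3.65% (quartiles 1.12% and 12.1%) where the codon lay in a dropped exon, 9.997% (4.31% and 27.3%) where it lay in the first kept exon, and 24.3% (9.71% and 58.3%) where it lay later. Models above their parent in both libraries made up 11.1%, 24.1% and 65.5% of these groups. Starts on an annotated transcript start in replicate 2 made up 26.8%, 57.4% and 93.1%. These shares rest on reads, which chose the models, so they are given without a test.

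**Figure D2:**
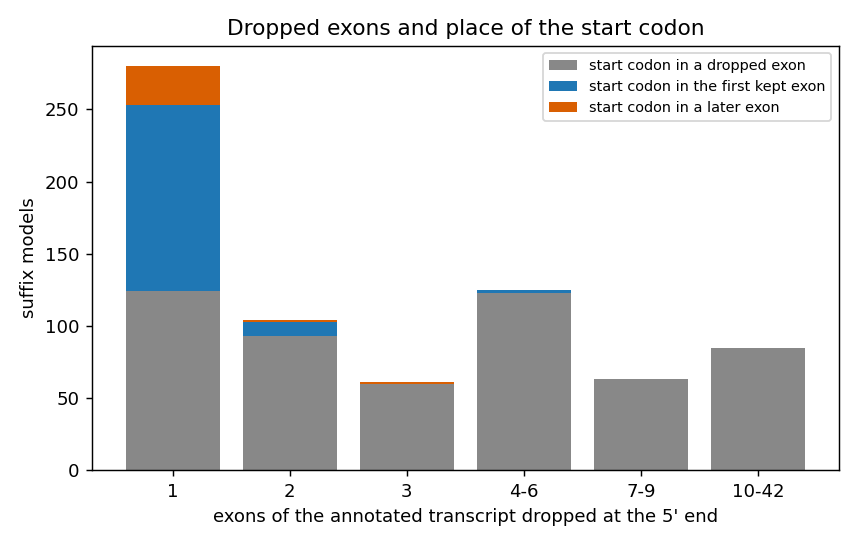
Number of suffix models (vertical axis) by the number of exons dropped at the 5′ end of the parent (horizontal axis, grouped above 3), stacked by the place of the annotated start codon. Models whose parent has no coding part (9) are left out. The bar for 1 dropped exon is the tallest, and most of the models whose start codon was retained stand in it.

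Among the 502 models that began past their start codon in both libraries, the median share was 3.49%, and the dropped exons held a median of 33.2% of the coding sequence (quartiles 16.3% and 56.2%). A later in-frame ATG was found in 490 of them, and in 264 it began within 100 nt of the edge of the first kept exon. Its median distance from the annotated start codon was 217.5 residues. The 28 models that began before the codon in both libraries had a median share of 5.87%.

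First exons dropped on their own had about the base composition of other first exons. The dropped exon of the 283 models whose chain lacked only exon 1 had a median of 65.4% GC and 154 nt, against 67.3% GC and 220 nt for the first exons of 8191 annotated spliced models with at least 5 reads in each library. Over 70% GC was reached by 28.3% of these dropped exons and by 35.8% of the annotated first exons. Without the 54 models whose deposited first exon ran over the intron in both libraries, the other 229 had a median of 65.1% GC and 163 nt, with 28.8% over 70% GC.

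The share of the gene varied widely, with the lowest mean share, 0.0330%, in a Cyp11a1 model. Over the 739 models with a share, the median was 4.99% in replicate 2 and 4.76% in replicate 1, and the median of the mean shares was 4.93% (quartiles 1.60% and 15.4%). The share was under 1% for 137 models and at least 10% for 252. In genes read at least 20 times in both libraries, 32 models in 32 genes held at least 50% of the reads of their gene on average, and 28 of these did so in each library. Of the 32 models, 22 dropped a single exon. Those 22 dropped exons ranged from 42.1% to 79.0% GC, with a median of 59.1%.

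**Figure D3:**
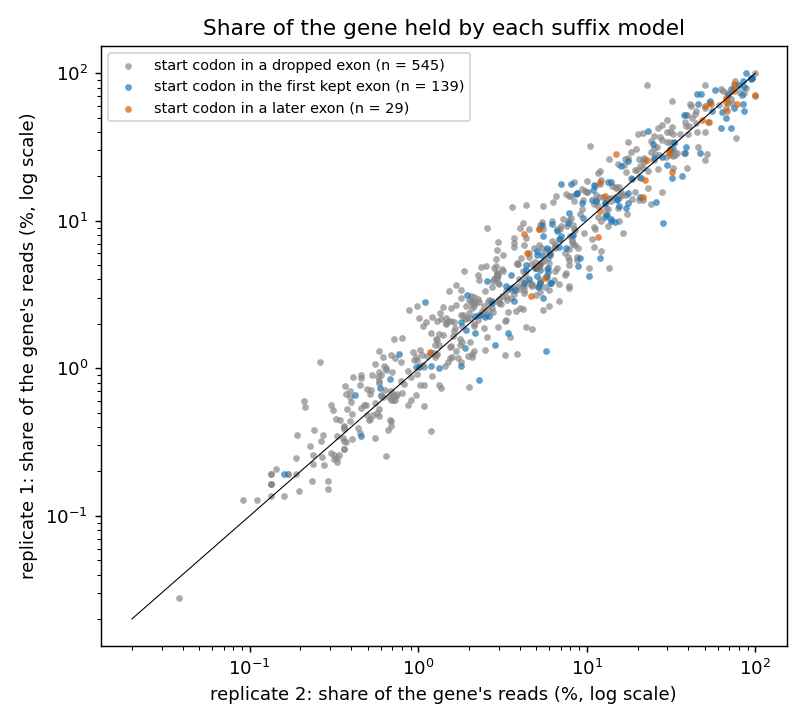
Share of the reads of the gene held by each suffix model in replicate 2 (horizontal axis) and replicate 1 (vertical axis), in percent on log axes, coloured by the place of the annotated start codon; the line marks equal shares. Only models with a share and a coding parent are drawn. Points follow the line over the whole range, and the models with a start codon in a later exon lie mostly in the upper part.

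Among the models of highest share, several kept the annotated start codon. Atp5f1, a subunit of the peripheral stalk of the mitochondrial ATP synthase, had 199 of 209 reads (95.2%, Wilson 95% interval 91.4% to 97.4%) in replicate 2 and 330 of 355 (93.0%, 89.8% to 95.2%) in replicate 1 on a model without exon 1 of its parent. The model began at chr3:105959246-105959246, on the start of the annotated transcript Atp5f1-202 and upstream of the start codon, and Atp5f1-201, the parent, had no read. Psmc2, an ATPase of the proteasome cap, had 89 of 95 reads (93.7%) and 114 of 122 (93.4%) on a model that began 20 nt inside exon 2 in replicate 2 and on its edge in replicate 1. Intervals given here cover counting error only, since the files hold no molecular identifiers.

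Dhcr7, which turns 7-dehydrocholesterol into cholesterol, had 313 of 466 reads (67.2%, 62.8% to 71.3%) in replicate 2 and 325 of 482 (67.4%, 63.1% to 71.5%) in replicate 1 on the model that begins in the promoter shown above. That is 67.3% ± 0.184 of the gene (SD, n = 2). It began on the start of Dhcr7-209, 95 nt inside exon 2 of the parent, which had no read, and the start codon lay in a later exon. A further 3 suffix models of Dhcr7 began further downstream, of which the one that dropped 2 exons had 32 and 36 reads. Sdsl (75% and 84.3%), Tspan12 (73.6% and 76.1%) and Atp5j (54.5% and 62.2%), with the start codon in a later exon, and Serping1 (71.8% and 78.3%), with the codon in the first kept exon, began on annotated transcript starts too. Serping1 codes for the C1 inhibitor, Tspan12 for a tetraspanin, and Atp5j for a further subunit of the ATP synthase.

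Other models of high share lacked the start codon. Hao2 had 458 of 665 reads (68.9%, 65.3% to 72.3%) in replicate 2 and 590 of 933 (63.2%, 60.1% to 66.3%) in replicate 1 on the model that begins at the exon 5 edge shown above, while Hao2-201, its parent, had 82 and 131 reads. It drops 4 exons, which hold 26.7% of the coding sequence, and the in-frame ATG of the stretch lies 140 residues past the annotated one. A second Hao2 model, from exon 6 on, had 83 and 135 reads. Cadm1, an adhesion molecule, had 41 of 54 reads (75.9%) and 47 of 53 (88.7%) on a model without exon 1, and no read on its parent. Ccdc114 had 66 of 102 (64.7%) and 76 of 101 (75.2%) on a model whose chain lacks the first 9 exons. Its deposited first exon began 385 nt before exon 10, inside a dropped exon, in both libraries. Ssbp1, the single-strand DNA-binding protein of mitochondria, had 35 of 85 (41.2%) and 93 of 151 (61.6%) on its last 2 exons.

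Ctsa, a lysosomal carboxypeptidase, had 107 of 125 reads (85.6%) and 119 of 147 (81.0%) on 1 chain, but the deposited start was position 164832909 of chromosome 2 in replicate 2 and 164833779 in replicate 1, 870 nt apart. In replicate 2 it lay 815 nt before exon 2 and in replicate 1 it lay 55 nt inside it. C4a (51.0% and 58.2%) has the near-identical neighbour C4b, so its reads could have been split between the copies.

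Models were selected by reads, and the gene groups of the most read models in other classes were not examined. Of the 15 most abundant suffix models, most came from steroid, lipid and mitochondrial genes. The highest was the 3-exon model of Hsd3b1, the enzyme that turns pregnenolone into progesterone, with 753 reads in replicate 2 and 879 in replicate 1, or 1106 ± 56.6 CPM (reads scaled to the gene-assigned total of the library, SD, n = 2). It lacked exon 1, kept the start codon, and held 15.1% and 13.9% of the gene, where the annotated parent had 5 and 14 reads. Hsd3b1 has close paralogs, between which reads could be split. The last 2 exons alone gave 131 and 453 reads of Atp5b, 88 and 327 of Ndufa4, a small protein of the respiratory chain, 80 and 414 of Fabp4, and 136 and 182 of Chgb. All of these were lower in replicate 2, also in CPM, and no cause was tested. Dgat2, which makes triglyceride, had 113 and 225 on a model that began 280 nt before exon 2 on an annotated start.

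In some genes the models formed ladders, with 1 intron chain for each possible first kept exon. A step is named by its chain, and the deposited start can lie upstream of that exon. Of the 5 transcripts with a full ladder, 3 were those of Cyp11a1, Cyp11b1 and Star. Cyp11a1, which cleaves the side chain of cholesterol, had a suffix model at all 7 possible steps of its 9 exons. These had 413 reads in replicate 2 and 729 in replicate 1, together 3.16% and 3.36% of the gene. The parent had 8281 and 9643 reads, or 63.4% and 44.4% of the gene, so the make-up of the gene's reads differed between the libraries. The suffix reads were uneven over the steps. From exon 4 on there were 211 reads in replicate 2 and 361 in replicate 1, and from exon 6 on 69 and 197. From exon 7 on there were 5 and 6, although the deposited start of that model was the exon 6 edge. The deposited starts of the exon 4 step differed, with 58018393 in replicate 2 and 58019293 in replicate 1 on chromosome 9, while the chain was the same. In replicate 2 the deposited starts of the exon 3 and exon 8 steps lay 1920 nt and 3187 nt upstream of those exons.

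Star, which moves cholesterol into mitochondria, had models at all 5 steps with 539 and 724 reads. Of these reads, the step at exon 4 had 304 and 465, or 3.15% and 4.70% of the gene. Its starts lay 3 nt apart at the edge shown above. The step at exon 2 had 128 and 142 reads, and in replicate 2 its deposited start was that of the parent, 982 nt upstream. In replicate 1 the exon 3 step began 241 nt before its exon, inside a dropped exon. Cyp11b1, the 11-beta hydroxylase of corticosterone synthesis, had models at all 7 steps with 181 and 211 reads. Its reads were spread more evenly, from 7 and 8 at exon 7 to 44 in each library at exon 2. Cyp11b1 has the close paralog Cyp11b2. Full ladders stood in 5 of the 40 annotated transcripts with 3 or more suffix models, the other 2 being those of Cidec, a lipid droplet protein, with 4 of 4 steps, and Cfd, adipsin, with 3 of 3. Every step needs 5 reads in each library, so a full ladder depends on gene depth and exon number. In replicate 2 and replicate 1, Cyp11a1 had 13061 and 21722 reads, Star 9637 and 9898, and Cyp11b1 6342 and 6223. Cfd had 1726 and 3492, and Cidec 809 and 1250.

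**Figure D4:**
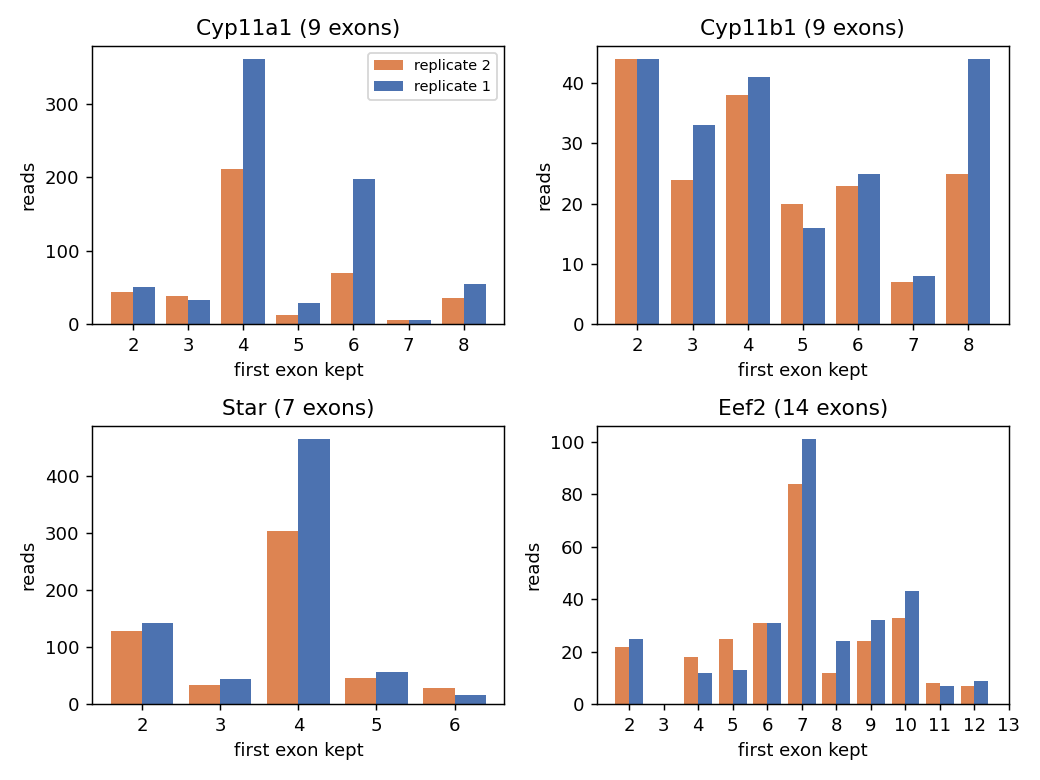
Reads (vertical axis) of the suffix models of Cyp11a1, Cyp11b1, Star and Eef2 by the first exon that the model keeps (horizontal axis), with replicate 2 and replicate 1 side by side. The highest bars stand at the same exon in both libraries for Cyp11a1 (exon 4), Star (exon 4) and Eef2 (exon 7).

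Other transcripts had partial ladders, and those named here had more exons than the 5 with a full ladder. Eef2, an elongation factor of translation, had 10 of 12 possible steps with 264 and 297 reads, which made up 22.1% and 27.1% of the gene. Its step at exon 7 was the highest, with 84 and 101 reads, and began at the exon 6 edge in replicate 2 and the exon 7 edge in replicate 1. Abcb1b, a transporter of the multidrug resistance family, had the most suffix models of any gene on 1 parent, 12 of 26 possible steps. None of them was deep, at 5 to 9 reads in replicate 2 and 5 to 20 in replicate 1, and together they were 1.96% and 2.70% of the gene. Acly, which makes cytosolic acetyl-CoA, had 9 of 26 steps on Acly-201 (3.88% and 3.56%), and Pcx had 8 of 19 (12.5% and 11.1%). Fdxr, which passes electrons to the mitochondrial P450 enzymes, had 7 of 10 steps (7.63% and 8.40%), Fads1, a fatty acid desaturase, 7 of 10 (13.5% and 13.3%), and Hsp90ab1, a chaperone, 7 of 9 (4.42% and 6.13%). These 7 genes, with Cyp11a1 and Cyp11b1, are the 9 with the most suffix models, ties kept. Fasn, fatty acid synthase, had only 5 of 41 steps but 34.2% and 35.2% of its gene on them.

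Of the 23 genes of a steroidogenesis list, 16 had at least 1 suffix model, 54 in all, with a median share of 0.529%. In the chromaffin list 8 of 22 genes had 14 models with a median share of 2.16%. In the list for fatty acid and cholesterol synthesis 9 of 25 genes had 40 models with a median of 1.57%, and in the list for cytoskeleton and extracellular matrix 7 of 25 had 18 models with a median of 2.62%. The median over all 739 models was 4.93%. The minimum of 5 reads is a smaller share of a deeply read gene, so these medians depend on gene depth and do not rank the lists. Summed over the suffix models of a gene, shares in the steroidogenesis list ranged widely. They ran from 0.511% in replicate 2 and 0.448% in replicate 1 in Apoe to 19.9% and 22.2% in Nr5a1. Whether a gene had a model went with its reads. Of genes with an annotated transcript, 9.07% had one at 50 or more but under 200 reads in the lower library, 33.2% at 200 or more but under 1000, and 82.6% at 1000 or more. At that last depth, all 10 genes of the steroidogenesis list and all 4 of the chromaffin list had one.

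Nr5a1, the transcription factor that governs steroidogenic genes, had the highest share of the steroidogenesis list, with 68 of 341 reads (19.9%, 16% to 24.5%) in replicate 2 and 61 of 275 (22.2%, 17.7% to 27.5%) in replicate 1 on a model from exon 4 on. Its parent Nr5a1-201 had 177 and 138 reads. The 3 dropped exons hold 17.6% of the coding sequence, and the DNA-binding domain of this receptor lies at its N-terminal end. In Cyp21a1, the 21-hydroxylase, which has a pseudogene copy, the model from exon 3 on had 86 and 72 reads (0.822% and 0.784%) and the one from exon 4 on had 39 and 29. Scarb1, the lipoprotein receptor that brings in cholesterol ester, had 28 and 31 reads on the model without exon 1. Srd5a2 had 2 thin models, 22 and 13 reads and 7 and 9, that matched the end of no annotated transcript.

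Among chromaffin genes, Chga and Chgb had the most suffix reads. Chga had 143 and 211 reads on 5 of 6 possible steps (5.44% and 7.46% of the gene), and Chgb had 136 and 182 on its last 2 exons (4.55% and 5.68%). Dbh, which makes noradrenaline, had 26 and 28 reads (12.1% and 9.89%) on the model from exon 3 on. Npy, a neuropeptide, had 21 and 68 reads on a chain without exon 1, whose start was the edge of exon 2 in replicate 2 and the start of the gene, 888 nt upstream, in replicate 1. Slc18a1, a vesicular monoamine transporter, had 14 of 21 and 14 of 22 reads on a model that began on the start of Slc18a1-202 with the start codon in a later exon.

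Longer genes had more of their reads on suffix models of any depth. Suffix reads of any depth were summed in 2483 genes of at least 3 exons and at least 50 reads per library, split by annotated length into 5 groups of like size. The median share was 1.54% in replicate 2 and 1.37% in replicate 1 in the group of shortest genes (up to 1425 nt). It was 4.90% and 4.96% in the group of longest genes (3571 nt or more). By exons, it was 0.873% and 0.703% for 3 to 4 exons and 6.25% and 7.29% for 16 or more.

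Shares were then compared between the libraries with Fisher's exact test (two-sided) on 9979 models of every class, with Benjamini-Hochberg adjustment over all of them. Differences counted as called if they reached 10 percentage points and the adjusted p was below 0.05. This called 23 models in all (0.23%) and 3 of 738 suffix models (0.407%), and 672 (91.1%) of the suffix models differed by under 10 points. With the adjusted p alone, 44 of all models (0.441%) and 11 suffix models (1.49%) passed, 2 with a higher and 9 with a lower share in replicate 2. The test sees the reads of these 2 libraries only.

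The suffix model of Pde2a, a cyclic nucleotide phosphodiesterase, with 31 exons had 129 of 169 reads (76.3%) in replicate 2 and 106 of 292 (36.3%) in replicate 1 (Fisher's exact test, adjusted p = 1.07e-13). A 30-exon suffix model with 222 and 149 reads was given to the overlapping gene Gm45837 in replicate 2 and to Pde2a in replicate 1, which changes the sum it is divided by. Over the reads of both genes together the 31-exon model held 28.5% of 453 reads and 31.6% of 335 (Fisher's exact test, unadjusted p = 0.346), and the 30-exon model held 49% and 44.5%.

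Slc27a1, a fatty acid transport protein, had 130 of 406 reads (32.0%) in replicate 2 and 74 of 379 (19.5%) in replicate 1 on a model that began on an annotated start 66 nt before exon 2 (Fisher's exact test, adjusted p = 0.0198). Fabp4, the fatty acid binding protein of adipocytes, had 80 of 320 (25%) and 414 of 1107 (37.4%) on its last 2 exons (Fisher's exact test, adjusted p = 0.0117). The fat markers, Fabp4 among them, summed to 2573 reads in replicate 2 and 6367 in replicate 1. That is a difference in level, for which fewer cells of a type and less RNA per cell cannot be told apart in whole tissue. The Fabp4 difference is in the share of its own reads, and the part of the fat markers in it was not tested.

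The other 8 models past the adjusted p alone, all lower in share in replicate 2, had differences from -8.83 to -0.379 points (replicate 2 minus replicate 1). They were in Atp5b, Star, Cyp11a1, Lmna, Ecm1, Rnh1 and Akr1cl, the last with 2 models. The 2-exon model of Atp5b held 7.56% of the gene in replicate 2 and 15.3% in replicate 1 (Fisher's exact test, adjusted p = 2.21e-12), and the exon 4 model of Star 3.15% and 4.70% (Fisher's exact test, adjusted p = 1.82e-05).

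The ratio of the libraries varied with the length of the models. The median log2 ratio of replicate 2 over replicate 1 (CPM with 1 CPM added) was 0.06 over the 746 models and 0.11 over the 10395 matched models of every class. The sign for the suffix models depends on the scaling, as it was -0.0318 with TMM and -0.0785 with DESeq2 size factors, and it was -0.00718 for models with 20 reads or more in both libraries. By the length of the kept part, it was -0.31 in the shortest of 4 length groups (up to 1265 nt), 0.05 and 0.15 in the middle groups and 0.29 in the longest (2908 nt or more). Annotated models of the same lengths gave -0.41, 0.01, 0.18 and 0.29. The share of the gene moved little in any length group, with medians from -0.106 to -0.0349 percentage points.

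**Figure D5:**
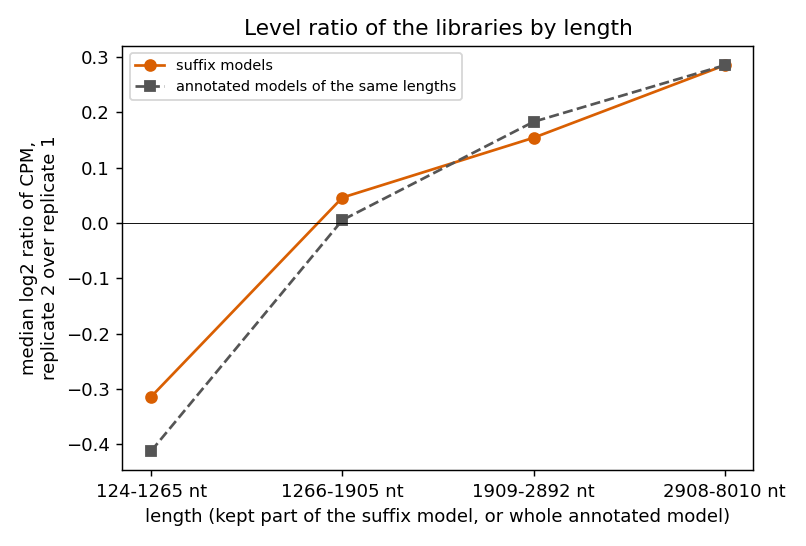
Median log2 ratio of CPM of replicate 2 over replicate 1 (vertical axis) in 4 groups by length (horizontal axis), for the suffix models by their kept part and for annotated models of the same lengths. Both lines rise with length, the suffix models from -0.31 to 0.29 and the annotated models from -0.41 to 0.29.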

How the data were processed

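For each of 2 libraries the authors deposited unnormalized read counts and exon coordinates of its transcript models, on build mm10 with GENCODE M21 per the deposited notes. The annotation's source field names TALON. Platform, aligner, versions and the way model starts were set remain not given in the sources used here. The deposited columns also hold exon numbers and model lengths. Depth was 656786 gene-assigned reads in replicate 2 and 824186 in replicate 1 after spike-ins were taken out, so 3 reads, the most that a count of 0 allows, are 4.57 and 3.64 CPM.

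Matching between libraries used the chromosome, the strand and every intron. A share is the reads of a model over all reads of its gene, with Wilson 95% intervals for single libraries. The parent is the annotated transcript with the same 3′ intron chain and the most reads. Shares were compared by Fisher's exact test (scipy 1.17.1) with Benjamini-Hochberg adjustment, tested on simulated data. With 1 group of 2 libraries the quasi-likelihood test of edgeR could not be fitted; TMM (edgeR 4.0.16) and DESeq2 1.42.0 gave alternative scalings only.

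Named models are the 15 of highest share in genes read 50 times or more per library, the 15 of highest CPM, those of the 8 genes with most models, the 10 called with the largest difference (3 were called), those of the steroidogenesis and chromaffin lists with at least 20 reads in each library, and the 10 with at least 50 reads in each library whose starts lay closest. Others named were chosen after their values were seen. Members, lists and rules were chosen with earlier results of these data known. One gene that this rule names is not reported here.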

Additional observations from a re-analysis of the deposited data

How the results depend on the processing

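Of 30 alternatives, 15 kept their value within 1.5 times, or within 1 SD of the libraries for medians. The number of suffix models (746) was 1455 at 3 reads in each library, 311 at 10 and 140 at 20, and from 1064 to 1337 with either library alone. Starts recurred within 50 nt in 113 of the 140 models at 20 reads, and in 607 of the 746 at 5 reads. The median share (4.93%) was 5.48% of annotated and ISM reads, 7.72% at 10 reads and 9.80% at 20 reads, and from 4.76% to 4.99% with a single library. The 32 models with at least 50% of their gene were 60 with no minimum on the gene, and 33 with either library alone. The 3 called differences were 11 by adjusted p alone and 1 at 20 points. The median log2 ratio of 0.06 was -0.0318 with TMM, -0.0785 with DESeq2 size factors and -0.00718 at 20 reads, so its sign depends on the scaling. No paired analysis was possible because the libraries form 1 group.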
